A study of Rattus norvegicus with 2 samples.

Results

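The distribution of 8-oxoguanine (8-oxoG) at the start of each rat autosome was examined in genomic DNA of normal kidney. The regions were taken by position alone, as the stretch from base 1 to base 3000000 of chromosomes 1 to 20 in the rat assembly rn4. They are 20 regions, and a tiling of chromosomes 1 to 20 and X into windows of 3 Mb gives 919 windows that contain a probe. Of the 219941 probes placed on chromosomes 1 to 20, 6281 (2.86%) start inside these regions and 213660 lie on the rest of the same chromosomes. Counting starts at the first base of the assembled sequence, and the first probe lies between base 182 on chromosome 10 and base 150004 on chromosome 1.

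The samples were 2 male rats of the Wistar strain (spelled Wister in the labels), 5 weeks old, untreated and kept free of specific pathogens, with 1 array per rat and a single group. DNA fragments bound by the 8-oxoG antibody N45.1 (IP) were labelled with Cy5, and input DNA that had not been precipitated was labelled with Cy3, with 800 ng of DNA per labelling. Both were hybridised to an Agilent rat CGH array, so that each probe gives the ratio of IP to input at its own position. There was no treated group and no dye swap, and a difference between the dyes cannot be told apart from a difference between IP and input.

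8-oxoG arises when reactive oxygen species oxidise guanine, and it can pair with adenine as well as with cytosine, which makes it mutagenic. The glycosylase OGG1 removes it from DNA by base excision repair, so the level at a position reflects both how often the lesion forms and how fast it is removed. The rat complement holds chromosomes with the centromere at one end as well as chromosomes with arms on both sides, so the first bases of the assembly do not represent the same kind of chromosome end throughout.

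The level of a probe is log2(IP/input) of the processed intensities minus the median of the array, so 0 stands for the median probe and not for absence of 8-oxoG. Values for a region are means over its probes, and errors are SDs over 2 rats. With only 2 arrays their number limits the precision of every level, and an exact sign-flip test over 2 rats cannot give a two-sided p under 0.5. The files pair probes with positions only, so no gene is named for any region.

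As a whole, the probes of the regions differed little from the other probes in how well they were measured. In the regions, 87.1% of the probes were well above background in the input channel of rat 1 and 85.4% in that of rat 2, against 87.3% and 85.8% on the rest of the chromosomes. In the IP channel the shares were 86.7% and 83.3% in the regions, and 86.8% and 83.8% elsewhere. The mean log2 input intensity was 6.23 in rat 1 and 5.86 in rat 2, compared with 6.21 and 5.85 on the rest. Single regions differed more, since on chromosomes 8 and 11 71.0% and 68.6% of the probes were well above background in all channels, against 80.1% and 77.8% on the rest, and on chromosome 4 86.0% against 78.6%. The regions were probed more densely, with 105 probes per Mb against 85.5 on the rest, and the median distance between neighbouring probes was 7195 and 7886 bases. Density varied among the regions, from 154 probes on chromosome 1 and 175 on chromosome 2 to 471 on chromosome 20. The longest stretch without a probe inside a region was 372354 bases, on chromosome 20.

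Averaged over the 20 chromosomes, the level of the first 3 Mb was 0.08 in rat 1 and -0.05 in rat 2, a mean of 0.01 ± 0.09 (SD, n = 2). The sign of this mean depends on the processing, since it was -0.04 with normexp background correction (-0.07 and -0.02 in the rats). Normexp was run on median spot signals with an offset of 50, which itself shrinks the ratios of dim probes, and the effects of the correction and of the offset were not separated. The mean level was -0.02 over the first 5 Mb and 0.06 over the first 2 Mb, and it ranged from -0.0070, without chromosome 13, to 0.02 when single chromosomes were left out. It was 0.06 with medians over probes (0.09 and 0.02 in the rats), 0.05 before dye normalization and 0.04 with only the probes well above background. The rest of the chromosomes had -0.03 and -0.09 in rats 1 and 2. Both rats therefore had a higher level in the first 3 Mb than in the rest, by 0.11 in rat 1 and 0.04 in rat 2, which is 0.07 ± 0.05 (SD, n = 2). Single chromosomes spread widely around it, with an SD of 0.20 in rat 1 and 0.16 in rat 2. The median over chromosomes was 0.06 and 0.0097, closer to 0 than the mean in both rats. When each chromosome was left out in turn, the mean difference stayed between 0.06, without chromosome 8, and 0.09, without chromosome 4. With normexp background correction the mean difference was 0.02. Without that correction, over the first 1, 2 and 5 Mb, it was 0.22, 0.12 and 0.04, so it fell with the length taken. Against the 3 Mb that follow, from 3 to 6 Mb, the difference was 0.05 ± 0.04 (SD, n = 2).

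Single probes spread much more widely than region means. Within the regions the SD over probes was 0.92 in rat 1 and 1.20 in rat 2, and the quartiles were -0.49 and 0.63 in rat 1 and -0.70 and 0.67 in rat 2. In both rats 406 probes of the regions (6.46%) were above 1 and 253 (4.03%) were below -1, whereas on the rest of the chromosomes the shares were 5.79% and 4.64%. The rats had opposite signs at 2302 probes of the regions (36.7%), against 36.8% of the other probes.

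Of the 20 regions, 10 were above the rest of their chromosome in both rats, 5 were below it in both, and 5 differed in sign between the rats. The 10 regions above were those of chromosomes 2, 3, 5, 7, 8, 9, 11, 12, 13 and 20. The 5 below were those of chromosomes 4, 14, 15, 16 and 17. Among all 919 windows, the shares above and below in both rats were 43.4% and 44.3%, and the median difference was -0.0045, against 0.04 over the 20 regions.

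**Figure D1:**
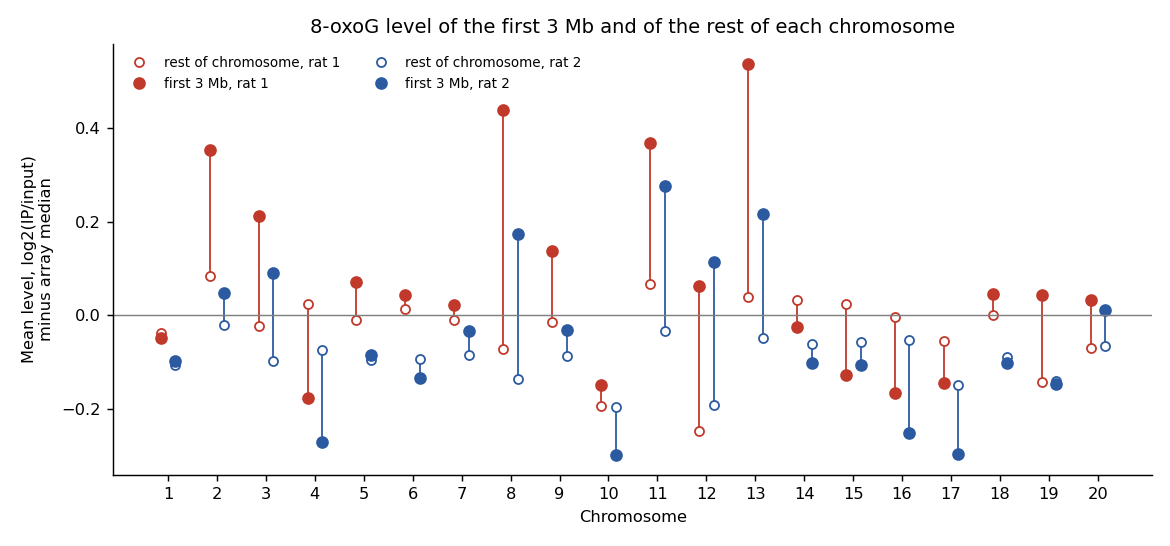
Mean level of the first 3 Mb (filled circles) and of the rest of the same chromosome (open circles) for chromosomes 1 to 20, as log2(IP/input) minus the array median, with rat 1 in red and rat 2 in blue and a line joining each pair. Chromosomes 8, 11, 12 and 13 have the longest upward lines in rat 2 and chromosome 4 one of the longest downward lines in both rats.

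The difference from the rest of the chromosome was tested with limma for every 3 Mb window of chromosomes 1 to 20 and X, with Benjamini-Hochberg adjustment over all of them. At an adjusted p under 0.05, 6 regions were above the rest of their chromosome, namely those of chromosomes 2, 3, 8, 11, 12 and 13, whereas 29.7% of all windows passed in this direction. Below the rest were 2 regions, those of chromosomes 4 and 16, against 27.5% of all windows. The share above (30%) is thus near the background, and the share below (10%) is lower than it, although with 20 regions this rests on few calls. Before dye normalization the same 6 regions were above and 4 were below, since chromosomes 15 and 17 also passed, and 32.2% and 31.3% of all windows passed. With normexp background correction and its offset, only chromosomes 8 and 13 were above and none was below, where 7.94% and 0.762% of all windows passed. At an unadjusted p under 0.05 normexp gave 5 regions above and 0 below. All windows were not counted at that threshold, so these counts cannot be set against a background share.

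The largest averaged difference was that of chromosome 8, although in rat 2 alone that of chromosome 11 was slightly larger. With the input trend removed, the averaged difference of chromosome 13 was larger. The first 3 Mb of chromosome 8 had a level of 0.44 in rat 1 and 0.17 in rat 2, and the rest of the chromosome had -0.07 and -0.14. The difference of 0.41 ± 0.14 (SD, n = 2) had an adjusted p of 5.14e-05 in limma. Positive levels were found for 68.5% of its 317 probes in rat 1 and for 59.6% in rat 2. The level did not decline away from the start: it was 0.15 ± 0.21 in the first Mb, 0.31 ± 0.19 in the second and 0.49 ± 0.16 in the third (SD, n = 2). Among the 44 windows of this chromosome the first ranked 3 in rat 1 and 4 in rat 2. At the first probe, from 21812 to 21871, the rats had opposite signs, with 0.57 and -0.36, and before dye normalization its mean was -0.18 instead of 0.11.

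Chromosome 13 had the highest averaged level of the 20 regions, with 0.54 in rat 1 and 0.22 in rat 2, although in rat 2 alone chromosome 11 was higher. Its difference from the rest was 0.50 in rat 1 and 0.27 in rat 2, or 0.38 ± 0.16 (SD, n = 2; limma, adjusted p = 0.000126). Each of its 3 fragments of 1 Mb was above 0 in both rats, with averages of 0.41, 0.27 and 0.47 from the start. In rat 1 74.8% of the 262 probes were positive, more than in any other region, and in rat 2 63.4%. In a running mean over the 500 kb on either side, the level stayed above 0 from the first probe to 11.1 Mb in rat 1 and to 5.27 Mb in rat 2, so the high level of this chromosome runs beyond the first 3 Mb. Its first probe, from 4692 to 4748, was nevertheless below 0 in both rats, with -0.55 and -0.35, and turned positive (0.20) when the trend on input brightness was removed.

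On chromosome 12 the first 3 Mb formed the highest of the 16 windows of the chromosome in both rats. The level itself was moderate, 0.06 in rat 1 and 0.11 in rat 2, while the rest of the chromosome was low, at -0.25 and -0.19. The difference was almost equal in the rats, 0.31 ± 0.0033 (SD, n = 2; limma, adjusted p = 0.000236). In the mean of both rats the level was highest in the first Mb, with 0.32 and 0.20, whereas the second Mb had 0.0074 and -0.06. In the third Mb the rats differed, with -0.04 in rat 1 and 0.24 in rat 2. The first probe, from 59921 to 59980, was close to the array median, with 0.16 and 0.04, and its mean changed sign (-0.21) without the trend on input brightness.

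Chromosome 11 showed the same size of difference as chromosome 12 from another starting level. Its first 3 Mb had 0.37 in rat 1 and 0.28 in rat 2 over a rest close to 0, which gives 0.31 ± 0.0053 (SD, n = 2; limma, adjusted p = 0.000236). Averages of its 3 fragments fell from 0.46 to 0.32 and 0.17 with distance. Again the region is the start of a longer stretch, which in the mean of both rats stayed above 0 until 17.6 Mb, although in rat 2 alone it ended at 2.70 Mb.

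The regions of chromosomes 2 and 3 rest on fewer probes. On chromosome 3 the difference was 0.24 in rat 1 and 0.19 in rat 2 (limma, adjusted p = 0.00359), and it was confined to the first 2 Mb, since the third Mb had levels of -0.06 and -0.09. Over the first 5 Mb of chromosome 3 the difference was -0.03. On chromosome 2 the rats differed more, with 0.27 and 0.07 (limma, adjusted p = 0.0231). Here the first Mb reached 0.93 in rat 1 and 0.97 in rat 2, but it holds 8 probes.

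The lowest averaged difference was that of chromosome 4, although in rat 2 alone that of chromosome 16 was slightly lower. With the input trend removed, the averaged difference of chromosome 16 was the lower of these 2. The first 3 Mb of chromosome 4 had -0.18 in rat 1 and -0.27 in rat 2, compared with 0.02 and -0.08 on the rest. This gives -0.20 in both rats, with an SD of 0.0036 (n = 2; limma, adjusted p = 0.00532). The level fell with distance from the start, from -0.03 ± 0.19 in the first Mb to -0.19 ± 0.08 in the second and -0.39 ± 0.03 in the third (SD, n = 2). Its first 500 kb were above 0 in rat 1 (0.38) and near 0 in rat 2 (-0.02). The first probe, from 47430 to 47489, gave -3.35 in rat 1 and 0.51 in rat 2, the widest gap between the rats among the first probes of the 20 regions. Over the first 1 Mb alone the difference was -0.0016 and over the first 2 Mb -0.08, and neither passed.

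On chromosome 16 the lowest fragment lay at the other end of the region. The lowest part was the first Mb, with -0.39 and -0.42, and the second and the third Mb had averages of -0.08 and -0.17. The whole region was at -0.17 in rat 1 and -0.25 in rat 2, and the difference from the rest was -0.18 ± 0.02 (SD, n = 2; limma, adjusted p = 0.00946). Over its 364 probes the correlation between the rats was 0.174, the lowest among the regions, so that the likeness of the rats here lies in the averages. Its first probe, from 10024 to 10083, had 0.60 and -1.05, and with normexp its mean turned from -0.23 to 0.03. With only the probes well above background the region did not pass (-0.14; limma, adjusted p = 0.0732), nor with medians over probes (-0.15; limma, adjusted p = 0.0639).

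Chromosome 17 came next among the low regions, with -0.09 and -0.15, but did not pass the test (limma, adjusted p = 0.0666). Its level was low along the whole region, with averages of -0.25, -0.22 and -0.19 in the 3 fragments. Positive levels were found for 40.9% of its 335 probes in rat 1 and 41.8% in rat 2, the smallest shares among the regions. Its first probe, from 881 to 939, had -0.74 and 0.18, and its mean changed sign (0.25) without the trend on input brightness. With the first 5 Mb in place of 3 Mb the region passed, at -0.12 (limma, adjusted p = 0.0148), and likewise before dye normalization and with only the probes well above background.

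**Figure D2:**
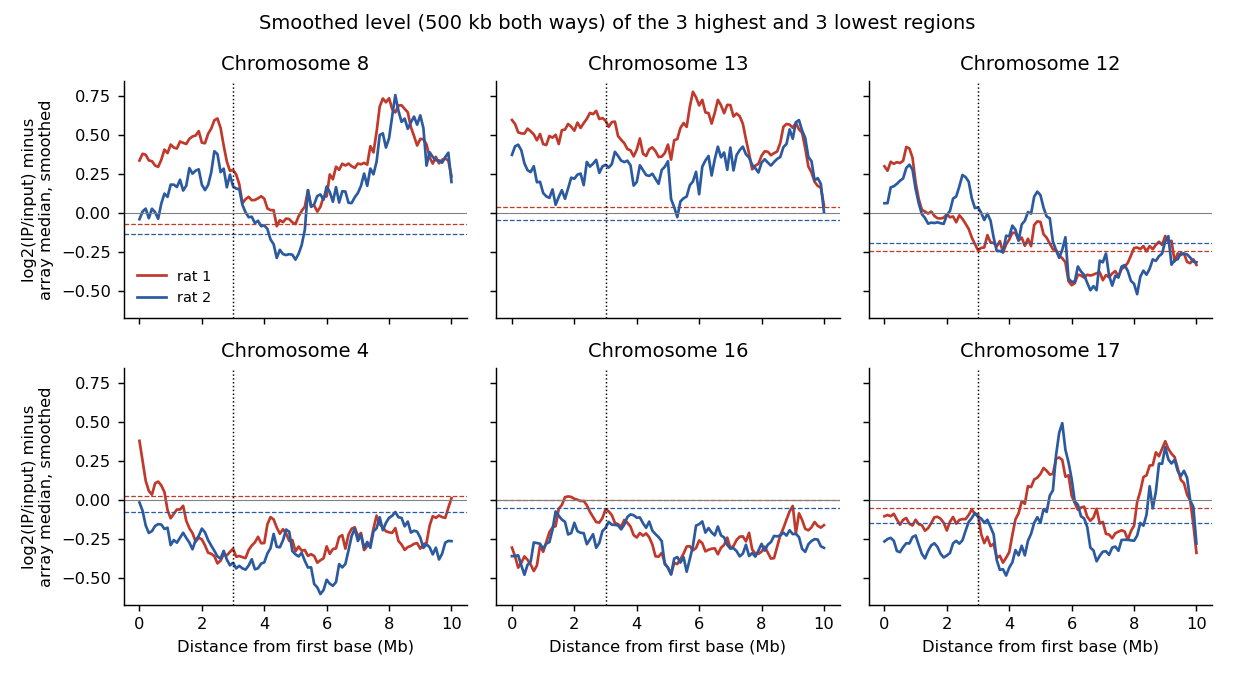
Running mean of the level (500 kb to either side) for the regions with the 3 highest differences from the rest (chromosomes 8, 13 and 12) and the 3 lowest (chromosomes 4, 16 and 17), against the distance from the first base in Mb, with rat 1 in red and rat 2 in blue. Dashed lines mark the rest of the chromosome in each rat and the dotted line marks 3 Mb; on chromosome 13 both curves stay above both dashed lines up to 5 Mb, and on chromosome 4 both lie below them between 2 and 3 Mb.

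When the level itself was tested against 0, 4 regions were above, those of chromosomes 2, 8, 11 and 13, and 4 were below, those of chromosomes 4, 10, 16 and 17 (limma, adjusted p under 0.05). Among all windows 20.5% were above and 30.9% below. With normexp none passed in either direction (0 above and 4 below at an unadjusted p under 0.05, without a share of all windows). With the input trend removed, with medians, or with only probes well above background, only chromosome 17 remained below, where 23.9%, 16.3% and 14.3% of all windows passed. Chromosome 2 lost its call above 0 with the input trend removed and with only probes well above background, where 13.8% and 16.3% passed above. Chromosome 10 was below 0 together with the rest of its chromosome: its first 3 Mb had -0.15 and -0.30 and the rest -0.20 and -0.20, so the level was low but the difference was not. Chromosomes 3 and 12 were the reverse case, passing the test of the difference but not that of the level. In 18 of the 20 regions the level was higher in rat 1 than in rat 2, and after subtraction of the rest of the chromosome in 14. The rest of the chromosomes was also higher in rat 1, with means of -0.03 and -0.09 in rats 1 and 2. The higher level in rat 1 is thus not particular to the regions, and neither count has a share of all windows beside it.

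The other regions were closer to the rest of their chromosomes. For chromosomes 1, 5, 6, 7, 9, 10, 14, 15, 18, 19 and 20 the averaged differences lay between -0.10, on chromosome 15, and 0.10, on chromosome 9, and none passed the test. An average near 0 did not always mean an even profile. On chromosome 19 the first Mb was at -0.22 and -0.46 and the third at 0.38 and 0.28, and in limma's test of 1 Mb fragments the former was below and the latter above the rest of the chromosome (adjusted p = 0.0439 and 1.76e-06). The call below was lost with normexp, before dye normalization, with the input trend removed, with medians and with only the probes well above background, and the call above was lost with normexp. On chromosome 14 the first Mb was at 0.33 and 0.36 and the second at -0.19 and -0.29, and these passed above and below the rest in the same way (adjusted p = 0.000309 and 0.031). Normexp ended both calls, and the call below was also lost with medians and before dye normalization. On chromosome 1 the first Mb, with 11 probes, had 0.48 and 0.34 and the third had -0.12 and -0.23.

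With all chromosomes weighted equally, the level was highest nearest to the first base. Averaged over the 20 chromosomes, the first 500 kb had a level of 0.32 in rat 1 and 0.14 in rat 2, or 0.23 ± 0.12 (SD, n = 2). The bins that followed had 0.15 and 0.06, then 0.15 and 0.0049, and from 1.5 Mb onward rat 1 was between 0.03 and 0.05 and rat 2 between -0.10 and -0.07 up to 3 Mb. In the first bin 11 chromosomes were above 0 in both rats and 6 below in both. In the bin from 2.5 to 3 Mb 4 were above and 12 below. From the first to the last 500 kb of the region the level dropped in both rats, with a difference of 0.28 in rat 1 and 0.21 in rat 2, or 0.25 ± 0.04 (SD, n = 2).

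Much of this difference came from 3 thinly covered chromosomes. The first 500 kb hold only 3 probes on chromosome 1, 4 on chromosome 2 and 5 on chromosome 3, with averages of 0.27, 1.57 and 1.04. Without bins of fewer than 20 probes, a limit chosen after seeing the data, 17 chromosomes remained in the first bin, at 0.18 in rat 1 and 0.02 in rat 2. The difference between the first and the last bin was then 0.12 and 0.05, or 0.08 ± 0.05 (SD, n = 2) over 16 chromosomes, of which 6 were higher at the start in both rats and 4 lower in both. With normexp the first bin was at 0.06 and the difference at 0.12. With all probes weighted equally the first bin had 0.15 in rat 1 and -0.00014 in rat 2, and in rat 2 the bin from 1 to 1.5 Mb was higher (0.0044). Beyond 3 Mb the averages of 500 kb bins up to 10 Mb stayed between -0.08 and 0.07 in the mean of both rats.

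**Figure D3:**
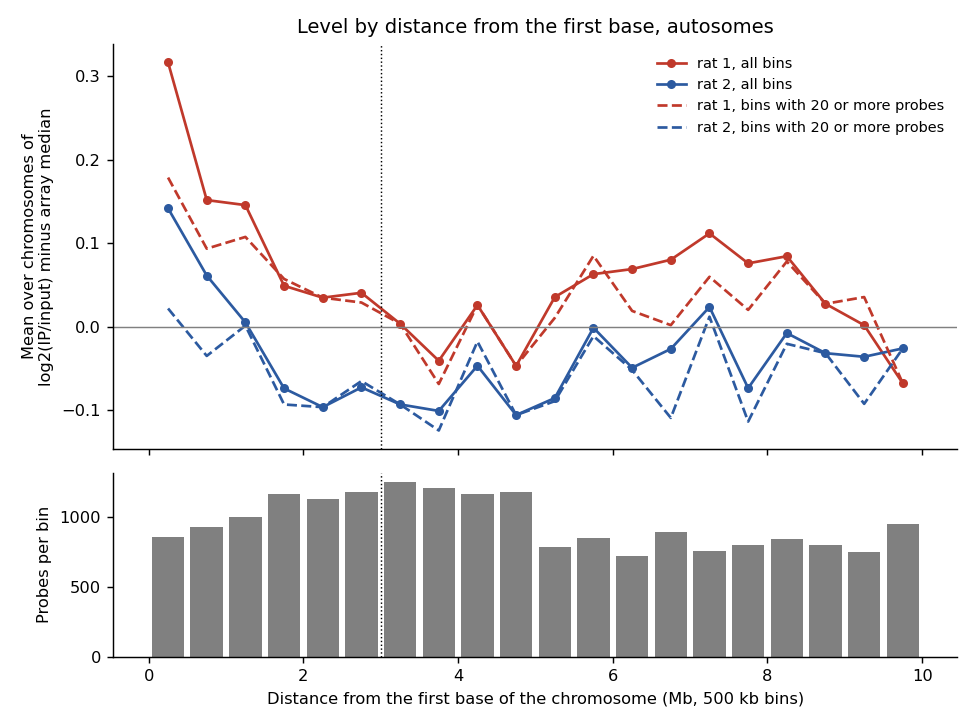
Upper panel: level averaged over the autosomes in bins of 500 kb against the distance from the first base in Mb, for rat 1 (red) and rat 2 (blue), with all bins (solid) and with bins of at least 20 probes (dashed). Lower panel: probes per bin over the autosomes. Solid curves start at 0.32 and 0.14 and dashed curves at 0.18 and 0.02, and the dotted line marks 3 Mb.

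The same was seen in fragments of 1 Mb. Over the 20 chromosomes, the first Mb was above the rest of the chromosome by 0.24 in rat 1 and 0.19 in rat 2, the second Mb by 0.11 and 0.05, and the third by 0.06 and 0.0090. In limma's test of all 2731 fragments, 21 of the 60 fragments in the regions were above the rest of their chromosome and 4 below, whereas 27.6% and 17.8% of all fragments passed in these directions. The calls above were unevenly placed, with 12 in the first Mb, 5 in the second and 4 in the third.

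The 12 first fragments above the rest were those of chromosomes 1, 2, 3, 5, 7, 8, 9, 11, 12, 13, 14 and 20. The first fragments of chromosomes 16 and 19 were below the rest. The standard error was 0.09 for every fragment whatever its number of probes, and those of chromosomes 1, 2 and 3 hold 11, 8 and 15 probes. Restricted to fragments with at least 20 probes, 9 of 17 first fragments were above and 2 below, against 28.0% and 18.9% of all such fragments, and the mean difference of the first Mb fell to 0.18 in rat 1 and 0.10 in rat 2. With normexp background correction 3 of the 20 passed above, those of chromosomes 2, 3 and 7, and none below, against 4.91% and 0.769% of all fragments. With the input trend removed 10 passed above, without chromosomes 8 and 20, against 22.0% of all fragments. The filter for probes well above background left 10, without chromosomes 9 and 20 (25.2%). Medians left 9, without chromosomes 8, 9 and 20 (21.3%), and before dye normalization 11 passed, without chromosome 9 (29.1%).

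Tested against 0, 16 of the 60 fragments were above and 5 below, and 20.9% and 20.4% of all fragments passed in these directions. Of the 16, 9 were in the first Mb, 4 in the second and 3 in the third. Of the 60 fragments 23 (38.3%) were above 0 in both rats and 29 (48.3%) below, near the 32.8% and 48.8% of all fragments, and the median of their averages was -0.04, against -0.07 for all fragments. Chromosome 13 is the region in which all 3 fragments were called above 0. No region had all 3 called below.

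**Figure D4:**
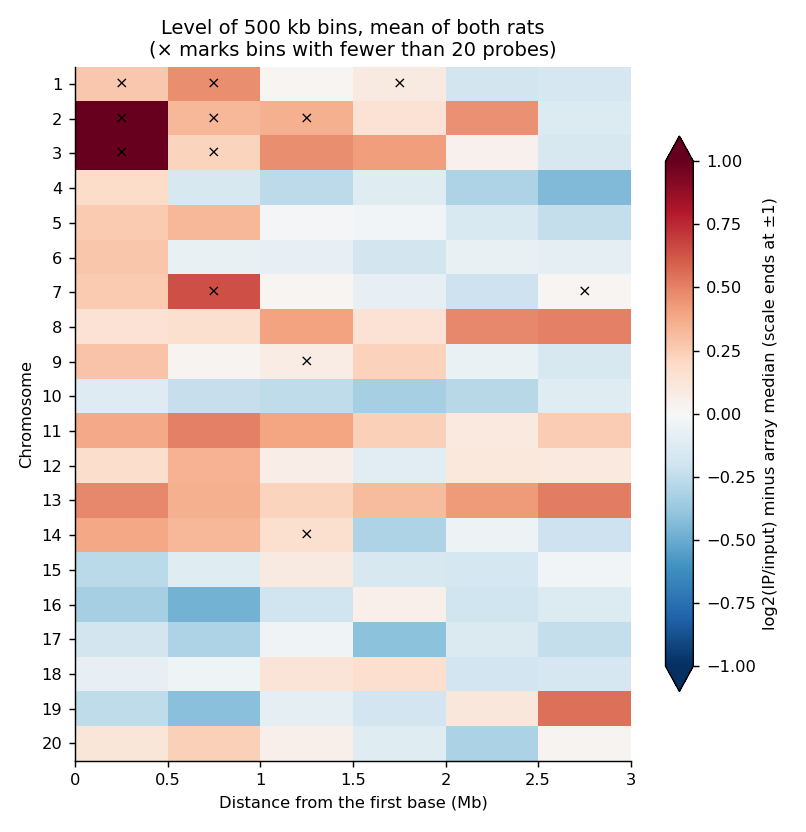
Level of the 6 bins of 500 kb in the first 3 Mb of chromosomes 1 to 20, as the mean of both rats on a colour scale from -1 (blue) to 1 (red), against the distance from the first base in Mb. A cross marks bins with fewer than 20 probes; the first bins of chromosomes 2 and 3, at 1.57 and 1.04, lie at or beyond the red end of the scale, and chromosomes 10, 16 and 17 are blue in nearly every bin.

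How far the level at the start extends was read from the smoothed profile. There the running mean takes in only the 500 kb that follow the first probe. At 0.1 Mb it held 5, 5 and 7 probes on chromosomes 1, 2 and 3. At the first probe the profile was above 0 in the mean of both rats for 14 chromosomes, a count without a share over other positions. In 12 of these it was above 0 in each rat, and for the other 6 chromosomes, which are 10, 15, 16, 17, 18 and 19, it was below 0 in each rat. Chromosomes 4 and 8 started above 0 in rat 1 only. The stretch that began above 0 ended within the first 3 Mb on 10 of the 14 chromosomes, and ran further on chromosomes 2, 8, 11 and 13. Only on chromosome 13 did it pass 3 Mb in each rat, since in rat 2 it ended at 1.51 Mb on chromosome 2 and at 2.70 Mb on chromosome 11, and chromosome 8 started below 0. Below 0, the longest starting stretches in the mean of both rats were those of chromosome 10, to 12.2 Mb, and chromosome 16, to 11.2 Mb. In single rats the stretch of chromosome 10 was shorter, ending at 3.19 Mb in rat 1 and 6.06 Mb in rat 2. That of chromosome 16 ended at 1.68 Mb in rat 1 and at 11.2 Mb in rat 2.

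Brightness of the input moved with the differences. Across the 20 regions, the log2 input intensity minus that of the rest of the chromosome had a correlation of r = -0.741 with the difference in level (Spearman's rho = -0.552), and across the 845 other windows of the autosomes r was -0.857. These points share the input signal, which is the denominator of the ratio, and neighbouring windows are not independent, so the values are descriptive. The share of probes well above background had r = -0.592 with the difference in level over the same 20 regions (rho = -0.290). On chromosome 8 the difference of the input from the rest was -0.86 in rat 1 and -0.95 in rat 2 on the log2 scale, and that of the IP was -0.35 and -0.64. Chromosome 11 was similar, with -0.73 and -0.80 for the input and -0.43 and -0.48 for the IP. In both regions the IP was thus also dimmer than on the rest, but by less than the input. Chromosome 12 differed, with an input difference of 0.01 and -0.0071 and an IP difference of 0.32 and 0.30. On chromosome 4 the input was brighter by 0.54 and 0.58 and the IP by 0.34 and 0.39.

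After the trend of the ratio on input intensity was removed, the same 6 regions were above the rest of their chromosome, with 24.3% of all windows above and 17.6% below, so 6 of 20 is again near the background. The difference on chromosome 8 was then 0.31, on chromosome 11 0.22, on chromosome 12 0.30 and on chromosome 13 0.35. Chromosome 16 passed below the rest (-0.14; limma, adjusted p = 0.0492), while chromosome 4 did not (-0.13; limma, adjusted p = 0.0828). The part of input brightness in the differences beyond this was not tested.

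**Figure D5:**
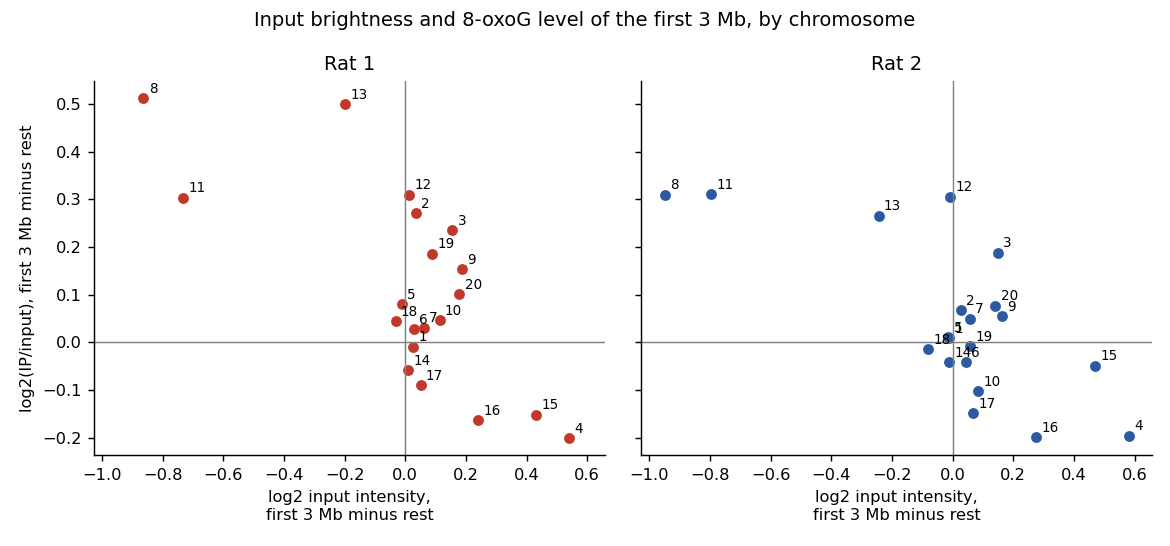
Difference in log2(IP/input) between the first 3 Mb and the rest of each chromosome against the same difference in log2 input intensity, for rat 1 (left) and rat 2 (right), with 1 point per chromosome and its number beside it. Chromosomes 8 and 11 have the dimmest input and a large difference in level, chromosome 4 the brightest input and the lowest difference in rat 1, and chromosome 12 a large difference in level at an input close to the rest.

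The rats resembled each other in these regions about as much as elsewhere. Pearson's r between the rats was 0.886 for the levels of the 20 regions and 0.902 for their differences from the rest (Spearman's rho 0.859 and 0.899), and over the 845 other windows it was 0.876 and 0.871. Over shorter stretches r was 0.880 for the 60 fragments of 1 Mb and 0.821 for the 120 bins of 500 kb, against 0.804 and 0.721 elsewhere. For the 6281 single probes it was 0.367, against 0.340 on the rest of the chromosomes, and with normexp 0.557 and 0.533. These are correlations across positions on the same pair of arrays and not across animals.

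Among probes well above background in all channels with the same sign in both rats, the highest in the regions lies on chromosome 4 from 1811246 to 1811305 (A_86_P01869165). It gave 3.51 in rat 1 and 3.21 in rat 2, within a region whose average was below 0. The next were on chromosome 20 from 186181 to 186240 (A_86_P06837084), with 2.38 and 3.36, and on chromosome 6 from 2877291 to 2877350 (A_86_P02832145), with 1.70 and 3.97. Neither of these regions was called as a whole, although the first Mb of chromosome 20, which holds the first of these probes, was above the rest (0.24; limma, adjusted p = 0.0191). That call was lost with normexp, with the input trend removed, with medians and with only the probes well above background. With normexp the 3 highest probes were at 0.43, 1.13 and 0.24. The log2 input in rats 1 and 2 was 4.09 and 3.21 at A_86_P01869165 and 4.37 and 3.52 at A_86_P02832145. Both were dimmer than the median of the region probes, 6.53 and 6.17, whereas A_86_P06837084 had 6.60 and 6.38. The lowest probes were 2 on chromosome 18, A_86_P06426314 from 2397142 to 2397201 with -1.71 and -5.27 and A_86_P06426134 from 2335006 to 2335062 with -3.02 and -3.95. The next lowest, A_86_P01871309, was again on chromosome 4, from 2515545 to 2515604, with -2.30 and -4.48. The 3 lowest probes had a brighter log2 input, from 7.60 to 9.28 over both rats. The part of input brightness in these extremes was not tested. Extreme single probes thus lay on both sides within the region of chromosome 4, whose first 3 Mb had the lowest averaged difference from the rest.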

How the data were processed

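Each array compares 8-oxoG IP DNA (Cy5, red) with input DNA (Cy3, green) of 1 rat. Per the file headers, the authors used Agilent Feature Extraction 10.5.1.1, whose processed intensity is background-subtracted, detrended and dye-normalized by lowess. The deposited files also hold the intensity before dye normalization, median spot and background intensities, a log10 ratio with substituted values for dim spots, and quality flags. They hold no mean spot signals, so normexp was run on median signals, with an offset of 50. The authors also deposited a log2 table of the same arrays; its values match the log2 ratio of red to green processed intensity (largest difference 6.22e-15), and it is not centred, with medians of 0.01 and 0.06.

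Of 6283 probes from 1 to 3000000, 6281 remained after 6 spots marked as outliers were left out, and 4978 were well above background in all channels. Spots were averaged by probe (25 probes with several spots), and levels were centred on the array median. Windows of 3 Mb and fragments of 1 Mb from base 1, and their difference from the rest of the chromosome, were tested against 0 with limma 3.58.1 in R 4.3.3 (lmFit and eBayes; two-sided p adjusted by Benjamini-Hochberg, threshold 0.05). The test was checked on simulated data. There is 1 residual degree of freedom per window, and the spread was pooled over windows. The p-values therefore do not follow the SD over 2 rats printed beside them. For 3 Mb windows the standard error was 0.08 against 0, whatever the number of probes. Against the rest of the chromosome it was 0.05 to 0.19. Other steps used Python 3.11.15, numpy 2.4.6, pandas 2.3.3, scipy 1.17.1, statsmodels 0.14.6 and matplotlib 3.10.9.

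Members and lists were chosen with earlier results of these data known. Detailed regions are the 3 highest and 3 lowest differences with the same sign in both rats and all that passed the test. Detailed probes are the first of those 6 regions and the 3 highest and 3 lowest; other chromosomes were named after their values were seen. Alternatives covered background correction, ratio, centring, dye normalization, input trend, spot filters, summary, region length, thresholds and single rats. Genes, probe sequences and GC content were not analysed here, since no annotation or genome of rn4 was used.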

Additional observations from a re-analysis of the deposited data

How the results depend on the processing

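No comparison between groups was possible because the arrays form 1 group. IP and input, and region and rest, were compared within each rat. Signal over background limits dim probes, since 79.3% of the region probes were well above background in all channels, and 2 rats limit every test. The cause of the changes below was not tested. Alternatives that need genes or sequences were not run.

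The mean level of 0.01 became 0.16 over the first 1 Mb, 0.059 over the first 2 Mb, 0.055 with medians, 0.047 before dye normalization and 0.044 with the background filter. It turned negative with normexp (-0.044), over the first 5 Mb (-0.021) and in rat 2 alone (-0.052). Leaving out chromosome 13 (-0.0070), chromosome 11 (-0.0041) or chromosome 8 (-0.0032) also turned it negative. The mean difference from the rest of 0.07 became 0.018 with normexp, 0.22 over the first 1 Mb, 0.12 over the first 2 Mb and 0.042 over the first 5 Mb. Percentages after counts are shares of all windows or fragments called in the same setting. Counts at unadjusted p, counts beyond 0.25 in both rats and counts in single rats have no such share. The single-rat counts are values beyond 0.25 in that rat and not limma calls, since 1 array allows no test. They are therefore not the same measure as the calls they stand beside. Of the 4 regions above 0, normexp left 0 (0%; 0 at unadjusted p under 0.05), the first 1 Mb gave 9 (20.9%), a level beyond 0.25 in both rats 1, and single rats 1 to 4. Of the 4 below 0, normexp left 0 (0.326%), a threshold of 0.01 left 0 (16.0%), with 4 at unadjusted p under 0.05 in both cases, a level beyond 0.25 left 0, single rats 0 to 4, and the input trend, medians and the background filter 1 each (23.9%, 16.3% and 14.3%).

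Of the 6 regions above the rest, normexp left 2 (7.94%), and the first 1 Mb gave 12 (27.6%). Instead of 2 below the rest, there were 0 with normexp (0.762%; 0 at unadjusted p under 0.05), 4 before dye normalization (31.3%), 5 over the first 5 Mb (33.3%), 1 each with the input trend removed, with medians and over the first 2 Mb (17.6%, 18.9% and 25.1%), 0 beyond 0.25 in both rats and 0 to 0 in single rats.

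Fragments above 0 changed from 16 to 2 with normexp (0.256%) and 8 without the input trend (10.9%), so all fragments lost calls too. Fragments below 0 changed from 5 to 2 with normexp (3.63%), 3 without the input trend (12.05%), 2 with medians (8.28%), 3 at a threshold of 0.01 (9.30%), 2 beyond 0.25 in both rats, and 2 to 13 in single rats. Fragments above the rest changed from 21 to 5 with normexp (4.91%). Those below the rest changed from 4 to 0 with normexp (0.769%; 2 at unadjusted p under 0.05), 2 with medians (8.93%), 2 at a threshold of 0.01 (9.19%), 2 beyond 0.25 in both rats, and 2 to 3 in single rats. First fragments above the rest changed from 12 to 3 with normexp. First fragments below changed from 2 to 0 with normexp, 1 each without the input trend, with medians, with the background filter and beyond 0.25, and 1 to 2 in single rats. Where 1 remained, the first fragment of chromosome 19 was the one lost.

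The level of the first 500 kb, 0.23, became 0.064 with normexp and 0.10 with at least 20 probes per bin, and was 0.14 to 0.32 in single rats. First minus last 500 kb, 0.25, became 0.12 and 0.083 in these settings. Correlation between the rats over region probes, 0.367, became 0.557 with normexp. Among named regions, chromosome 3 turned over the first 5 Mb (-0.028; limma, adjusted p = 0.609). First probes turned on chromosomes 12 (-0.21), 13 (0.20) and 17 (0.25) with the input trend removed, on chromosome 8 before dye normalization (-0.18) and on chromosome 16 with normexp (0.03). Of 135 values of named regions minus the rest, 11 lost a call, 3 gained one and 1 turned. Of 120 levels of called regions, 24 lost the call. Both totals include single-rat values, for which no test is possible.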

Other observations

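Chromosome X was not among the regions. Its first 3 Mb, with 334 probes, had a level of 0.25 in rat 1 and -0.0059 in rat 2, and a difference from the rest of the chromosome of 0.23 and 0.19, or 0.21 ± 0.03 (SD, n = 2; limma, adjusted p = 0.00365). Its level therefore differed in sign between the rats, as in 6 of the 20 autosomal regions, while the difference was similar in both. The last 3 Mb of the autosomes before the last probe had levels of -0.03 in rat 1 and -0.09 in rat 2 over the 20 chromosomes, equal to 2 decimals to the rest of the chromosomes as defined for the first 3 Mb.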
